A study of Homo sapiens with 27 samples.

Results

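RNA immunoprecipitation followed by sequencing (RIP-seq) was done in HL-60 cells with antibodies to H2A.Z, to acetylated H2A.Z (acH2A.Z) and to Tip60. The peaks described here were H2A.Z RIP peaks on chromosomes 1 to 22 that shared at least 1 bp with a peak of the acH2A.Z RIP list and at least 1 bp with a peak of the Tip60 RIP list. They numbered 4550 of 97665 H2A.Z RIP peaks on those chromosomes, or 4.66%, and are called common peaks below. This share follows from the rule and nothing is read from it. The 3 RIP lists together held 613331 peaks. The overlaps and tag counts that define the common peaks are given as description only.

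HL-60 is a human promyelocytic leukaemia cell line. The series title sets the work in a study of long non-coding RNAs of early S phase and of how acetylated H2A.Z is laid down on chromatin. It held 27 libraries, each the single library of its group, so no difference below has a replicate check and no p-value was computed. Besides the RIP lists, from untreated cells (the acH2A.Z RIP library is titled HL-60a, with HL60 as its cell line), total RNA and captured nascent RNA of untreated cells were used. Also used were nascent RNA, acH2A.Z chromatin immunoprecipitation (ChIP) and input DNA from cells given DMSO, 100 μM DRB or 0.8 μM actinomycin D (ActD), and H2A.Z ChIP from the DMSO cells. Treatment times are not given in the sources used here. The 3 RIP libraries with control IgG were not analysed here.

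H2A.Z is a variant of histone H2A that sits in nucleosomes near transcription start sites and at enhancers. Its acetylated form marks active promoters, and Tip60 (KAT5) is an acetyltransferase that modifies it. RIP recovers RNA bound, directly or through other proteins, to the protein that the antibody pulls down, so a RIP peak is a stretch of the genome from which recovered RNA was transcribed. DRB blocks the kinases that release RNA polymerase II into elongation, and ActD intercalates into DNA and blocks transcription.

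Few common peaks held a whole promoter window, and no such count is given for other H2A.Z RIP peaks. Of 33725 RefSeq promoter windows on 21 of the 22 autosomes (250 bases before to 50 bases after a gene's start, GRCh38.p14), 20 lay wholly inside a common peak, and 7 of these also lay wholly inside an acH2A.Z ChIP peak of the DMSO cells. The first 4 sequences are those, 1 per common peak, whose ChIP peaks had the highest tag counts. The last 2, chosen after the values were seen, are promoters in a common peak and in no acH2A.Z ChIP peak, with H2A.Z RIP tag counts of 14.8 (SEMA3F) and 6.90 (HBP1). They are written 5′ to 3′ on the gene's strand. Capitals mark, on either strand, the E-box CACGTG, the GC box GGGCGG, the CCAAT box CCAAT and the TATA box TATAAA.
CDC16: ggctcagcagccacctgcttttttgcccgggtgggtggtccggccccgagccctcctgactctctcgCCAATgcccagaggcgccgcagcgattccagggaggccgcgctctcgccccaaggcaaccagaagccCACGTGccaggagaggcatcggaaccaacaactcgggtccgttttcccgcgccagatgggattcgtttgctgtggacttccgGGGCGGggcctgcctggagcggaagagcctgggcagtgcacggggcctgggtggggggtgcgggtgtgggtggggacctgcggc
MICOS10-DT: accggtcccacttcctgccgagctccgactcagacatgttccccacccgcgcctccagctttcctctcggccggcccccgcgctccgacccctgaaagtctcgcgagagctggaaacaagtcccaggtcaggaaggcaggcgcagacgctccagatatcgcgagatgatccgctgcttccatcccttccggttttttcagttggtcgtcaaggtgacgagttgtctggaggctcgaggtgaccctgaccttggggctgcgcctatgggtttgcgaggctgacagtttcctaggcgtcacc
KHDC1: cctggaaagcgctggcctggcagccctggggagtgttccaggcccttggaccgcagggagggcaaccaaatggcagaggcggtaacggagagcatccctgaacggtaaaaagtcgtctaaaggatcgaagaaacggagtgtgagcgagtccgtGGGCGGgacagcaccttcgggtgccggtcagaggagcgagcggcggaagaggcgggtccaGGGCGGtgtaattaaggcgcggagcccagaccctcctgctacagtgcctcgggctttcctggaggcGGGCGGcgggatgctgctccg
CYP51A1: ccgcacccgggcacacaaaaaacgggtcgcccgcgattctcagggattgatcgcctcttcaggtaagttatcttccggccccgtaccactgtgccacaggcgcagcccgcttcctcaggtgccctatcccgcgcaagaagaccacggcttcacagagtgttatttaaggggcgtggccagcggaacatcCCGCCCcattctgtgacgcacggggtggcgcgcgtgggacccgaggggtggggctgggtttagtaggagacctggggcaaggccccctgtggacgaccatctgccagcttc
SEMA3F: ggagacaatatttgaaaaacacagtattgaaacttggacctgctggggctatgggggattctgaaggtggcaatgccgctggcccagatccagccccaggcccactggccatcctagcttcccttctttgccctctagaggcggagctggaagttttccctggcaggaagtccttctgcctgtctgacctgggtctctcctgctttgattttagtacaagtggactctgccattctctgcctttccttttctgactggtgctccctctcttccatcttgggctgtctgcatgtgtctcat
HBP1: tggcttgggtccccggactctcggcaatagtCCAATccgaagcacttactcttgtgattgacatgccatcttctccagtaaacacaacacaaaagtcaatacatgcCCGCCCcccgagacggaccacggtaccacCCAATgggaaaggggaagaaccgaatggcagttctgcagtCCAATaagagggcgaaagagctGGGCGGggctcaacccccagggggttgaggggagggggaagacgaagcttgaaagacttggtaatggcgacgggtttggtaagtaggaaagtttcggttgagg

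The CDC16 promoter (chr13:114234647-114234946, plus strand) serves a subunit of the anaphase-promoting complex. It held 1 E-box, 1 GC box and 1 CCAAT box, 23 CpG pairs and 69.3% G and C. MICOS10-DT (chr1:19596783-19597082, minus strand), a divergent transcript beside a gene of mitochondrial inner membrane organisation, held none of the 4 motifs and 24 CpG pairs. KHDC1 (chr6:73310110-73310409, minus strand), a gene for a KH-domain protein, held 3 GC boxes. CYP51A1 (chr7:92134428-92134727, minus strand), the lanosterol demethylase of cholesterol synthesis, held 1 GC box. SEMA3F (chr3:50158769-50159068, plus strand), a secreted axon guidance protein, had no motif, 2 CpG pairs and 53.0% G and C. HBP1 (chr7:107168753-107169052, plus strand), a transcriptional repressor, held 3 CCAAT boxes, 2 GC boxes and 14 CpG pairs.

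Over the 7 windows in both a common peak and an acH2A.Z ChIP peak the median G and C content was 65.0%, against 58.7% over all 33725 windows and 65.3% over the 11005 windows inside any acH2A.Z ChIP peak. The GC box was in 5 of these 7 windows, in 8 of the 20 windows inside common peaks, in 45.0% of all windows and in 70.4% of those inside an acH2A.Z ChIP peak. The window of LOC122539213 is the same as that of KHDC1, and that of CYP51A1-AS1 overlaps that of CYP51A1. Some letters are thus counted more than once among the 7 and the 20 windows. The E-box was in 1 of the 20 windows against 7.18% of all windows. The CCAAT box was in 9 of the 20 against 34.4%, and the TATA box in 4 of the 20 against 11.6%. A match is a description of the letters and not a binding site.

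The RNA of the protein-coding genes among these was present in HL-60 cells. CDC16 was at 36.0 CPM, counts scaled to the library total, in total RNA and 24.8 CPM in nascent RNA of untreated cells. Its nascent RNA was at 30.5 CPM in DMSO, 4.04 CPM in DRB and 28.4 CPM in ActD. KHDC1 went the other way, with nascent RNA at 1.66 CPM in DMSO (24 counts), 9.83 CPM in DRB (141 counts) and 58.7 CPM in ActD (739 counts). CYP51A1 was at 26.6 CPM in DMSO, 19.7 CPM in DRB and 24.7 CPM in ActD. HBP1, whose promoter lay in no ChIP peak, was at 3.05 CPM in DMSO, 41.8 CPM in DRB and 8.73 CPM in ActD. SEMA3F had 15 counts in DMSO and 0 in both DRB and ActD.

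Common peaks had median tag counts above the median of each list but were not its strongest peaks. The Normalized Tag Count, the peak caller's depth-scaled count of tags in a peak, had a median of 7.00 (95% interval 6.88 to 7.11) in the H2A.Z RIP list against 5.63 over that list. The values ran from 2.76 to 62.2, while the list reached 2413.3. The acH2A.Z partner peaks had a median of 8.85 (8.56 to 9.20, list median 7.17) and the Tip60 partner peaks 9.72 (9.46 to 10.0, list median 6.12). Of the 4550, 68.7% exceeded the list median in H2A.Z RIP, 60.1% in acH2A.Z RIP and 73.0% in Tip60 RIP. The upper quartile of peak size was 670 bp in common peaks, 626 bp over all H2A.Z RIP peaks and 500 bp in those with no partner. The part of peak size in the tag counts, and in the ranks below, was not tested. The fold over control in the H2A.Z list had the opposite order, with a median of 5.63 for common peaks, 7.09 for all and 7.59 for H2A.Z peaks with no partner. In the H2A.Z list common peaks thus had higher tag counts at lower folds. In the other 2 lists the partner peaks did not have lower folds. Their median fold was 58.8 in acH2A.Z RIP (list median 57.7) and 78.8 in Tip60 RIP (list median 67.2). Which library served as control is not given in the sources used here.

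The share of common peaks was highest in the upper ranks by H2A.Z tag count, though not at the very top. It was 10.9% (8.93 to 13.1%) in ranks 101 to 1000 and 10.7% in ranks 1001 to 5000. In ranks 1 to 100 it was 5.00% (5 of 100), with an interval of 1.64 to 11.3% that includes those values. Below rank 5000 it went down through 8.68%, 7.17% and 4.55% to 2.88% in ranks 50001 to 97665. Intervals of shares are exact 95% binomial (Clopper-Pearson) intervals and cover counting error only. No common peak was among the 57 highest H2A.Z RIP peaks. Those included RN7SK, the RNA that holds the elongation kinase P-TEFb inactive, at 2413.3, RNU2-2, a U2 spliceosomal RNA gene, at 2371.8, and RN7SL2, the RNA of the signal recognition particle, at 851.2. RN7SL2 had an acH2A.Z partner and no Tip60 partner, and RN7SK and RNU2-2 had neither.

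**Figure D1:**
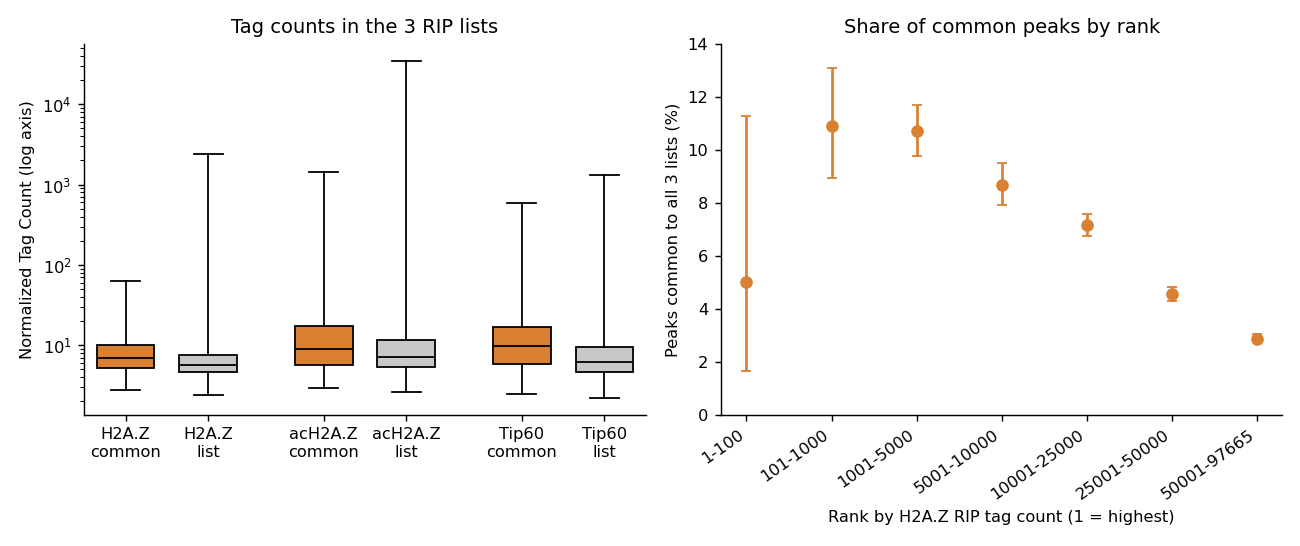
Left, Normalized Tag Count (log axis) of common peaks and of the whole list in each RIP list, as boxes of median and quartiles with whiskers to the lowest and highest value. Right, the percentage of H2A.Z RIP peaks that were common, by rank of H2A.Z tag count, with exact 95% binomial intervals; it was highest in ranks 101 to 5000 and lowest, 2.88%, in the last group.

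A partner in the acH2A.Z list went with a partner in the Tip60 list. A Tip60 partner was found for 35.5% of the 12806 H2A.Z peaks with an acH2A.Z partner and for 19.3% of those without. These are the overlaps that the rule used, so the shares are description only. Both kinds of partner were also most frequent where input DNA was high, as given below, and its part here was not tested. From the other side the common peaks were a small part of each list: 4568 acH2A.Z RIP peaks (1.76%) and 4549 Tip60 RIP peaks (1.85%) touched a common peak. The overlap had a median of 314.5 bp with the acH2A.Z partner and 439 bp with the Tip60 partner. Most common peaks, 2858 of 4550, had the list's smallest size of 500 bp. Both partners covered at least 50% of 1802 peaks, and 336 peaks lay wholly inside both partners.

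At the edge of the rule the values on both sides were alike. The smaller overlap was at most 10 bp in 96 common peaks, and 10 peaks shared only 1 bp. Among these, the peak at chr14:64215147-64215647 inside SYNE2, the nuclear envelope protein nesprin-2, had a tag count of 4.99 and overlaps of 1 bp with acH2A.Z and 467 bp with Tip60. Just outside, a peak in RSF1, a chromatin remodelling subunit, at chr11:77797113-77797613 had a tag count of 5.37, lay wholly under a Tip60 peak and stopped 1 bp short of an acH2A.Z peak. The median tag count was 5.82 over the 505 common peaks with an overlap under 50 bp and 6.21 over the 507 other peaks within 50 bp of both partners.

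The common peak with the highest tag count in the H2A.Z list was at chr21:8993224-8994009, in no annotated gene and 5.95 kb from MIR10396A, a microRNA gene. Its tag counts were 62.2 in H2A.Z, 1352.1 in acH2A.Z and 217.2 in Tip60, ranking 58, 53 and 44. It was the only common peak within the first 60 of each list by these ranks. Of the 12 common peaks with the highest H2A.Z tag counts (40.3 to 62.2), 6 lay in no gene and 6 in a gene. The genes were EPSTI1, an interferon-responsive gene, ANKFN1, the long non-coding RNA genes LINC01865 and LINC01906, ACAP1, a GTPase-activating protein of endosome recycling, and WDR7, a partner of the vacuolar proton pump. Folds over control for these 12 ran from 4.15 to 8.57, where the caller's limit was 4.

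The order of the peaks differed widely between the 3 lists. The ANKFN1 peak had tag counts of 50.3 in H2A.Z (rank 94), 26.1 in acH2A.Z (rank 16346) and 77.6 in Tip60 (rank 340). The EPSTI1 peak had 52.1 (rank 87), 16.6 (rank 35989) and 43.7 (rank 1624) in the same order. The ACAP1 peak had 44.8 (rank 123), 4.42 (rank 238302) and 10.0 (rank 56015). The last was thus near the top of the H2A.Z list and low in the acH2A.Z list of 259421 autosomal peaks. So was the WDR7 peak, with 40.6 (rank 146), 5.38 (rank 192299) and 5.94 (rank 128845). These peaks were wide and met their partners over a small part. The ACAP1 peak, of 2837 bp, shared 125 bp with its acH2A.Z and 284 bp with its Tip60 partner. The WDR7 peak, of 3112 bp, shared 127 bp and 15 bp. The ranks thus compare peaks that cover largely different stretches. The ANKFN1 peak, of 3477 bp, shared 807 bp and 3467 bp, and the EPSTI1 peak, of 1631 bp, shared 352 bp and 1631 bp.

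The highest partner in the acH2A.Z list, 1429.6, belonged to a peak that touched 2 common peaks of chromosome 22, at chr22:48847764-48848264 (6.22 in H2A.Z, 4.46 in Tip60) and chr22:48850041-48850541 (3.86 and 80.1). A peak in ZNF407 at chr18:74618400-74619362, inside this zinc finger gene, had 12.1 in H2A.Z, 802.5 in acH2A.Z and 19.2 in Tip60. The highest Tip60 partner was at chr8:125425050-125425550, 5.06 kb from TRIB1, a pseudokinase gene, with 14.5 in H2A.Z, 55.3 in acH2A.Z and 590.7 in Tip60. Another Tip60 peak of chromosome 8, at 237.4, touched 2 common peaks near the pseudogene KNOP1P5.

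Peaks that ranked high in all 3 lists were few. After the chromosome 21 peak, the best by its lowest rank lay in L3MBTL4, a gene for a malignant brain tumour domain protein on chromosome 18, with tag counts of 25.1, 182.8 and 142.5. Next came CCDC26, a long non-coding RNA gene of chromosome 8, with 33.9, 133.9 and 83.8. TRIB1AL, a long non-coding RNA gene beside TRIB1, had 22.3, 493.2 and 180.9. PPP6R2, a regulatory subunit of protein phosphatase 6, had 18.6, 388.1 and 58.0. Local input DNA, given in the next paragraphs, was 1.87 at L3MBTL4, 3.50 at TRIB1AL and 1.04 at PPP6R2.

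Common peaks were spread unevenly over the chromosomes, and chromosomes 18 and 20 stood out. On chromosome 18, 530 of 5151 H2A.Z RIP peaks were common (10.3%), and on chromosome 20, 387 of 3920 (9.87%). Chromosome 22 followed with 7.50%, and chromosomes 10 and 16 were lowest with 2.25% and 2.57%. Chromosome 18 held 11.6% of the common peaks but 5.27% of the H2A.Z, 5.10% of the acH2A.Z and 5.48% of the Tip60 RIP peaks. Chromosome 20 held 8.51% of the common peaks and 4.01%, 4.61% and 4.84% of the lists. In each list the share on either chromosome was thus below that among the common peaks.

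The amount of genomic DNA in these cells moved with this pattern in part. Input DNA of the DMSO cells, as counts per kb of gene relative to the genome, was 1.97 on chromosome 18, 0.988 on chromosome 20, 0.901 on chromosome 22 and 0.625 on chromosome 10. Chromosome 18 was thus high in both measures, chromosome 10 low in both, and chromosome 20 high in common peaks at an ordinary input. Over the 22 autosomes, which share the same libraries, Pearson's r between input and share of common peaks was 0.59 and Spearman's rho 0.46. Without chromosome 18 they were 0.26 and 0.38, and without chromosomes 18 and 20 they were 0.35 and 0.38. The part of DNA copy number in the count of common peaks was not tested.

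Input DNA around each peak gave a finer view. Where the input of genes within 1 Mb was under 0.5 of the genome's level, 3.67% of H2A.Z RIP peaks were common (2.80 to 4.71%), at 0.5 to 0.75 it was 3.43%, at 1 to 1.25 it was 4.73%, at 1.5 to 2 it was 7.26% and at 2 or more 9.59% (8.74 to 10.5%). Without chromosome 18 the last values were 6.38% and 8.76%. Partners in each single list were also most frequent at high input. An acH2A.Z partner was found for 12.6% of peaks under 0.5, 11.2% at 0.5 to 0.75 and 21.0% at 2 or more, and a Tip60 partner for 16.6%, 18.7% and 33.7%. Median local input was 1.13 at common peaks, 1.00 at H2A.Z peaks with no partner and 1.02 over all. Of the 3774 common peaks with a value, 24.1% lay at 1.5 or more, against 14.1% of all 78643 peaks with a value.

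**Figure D2:**
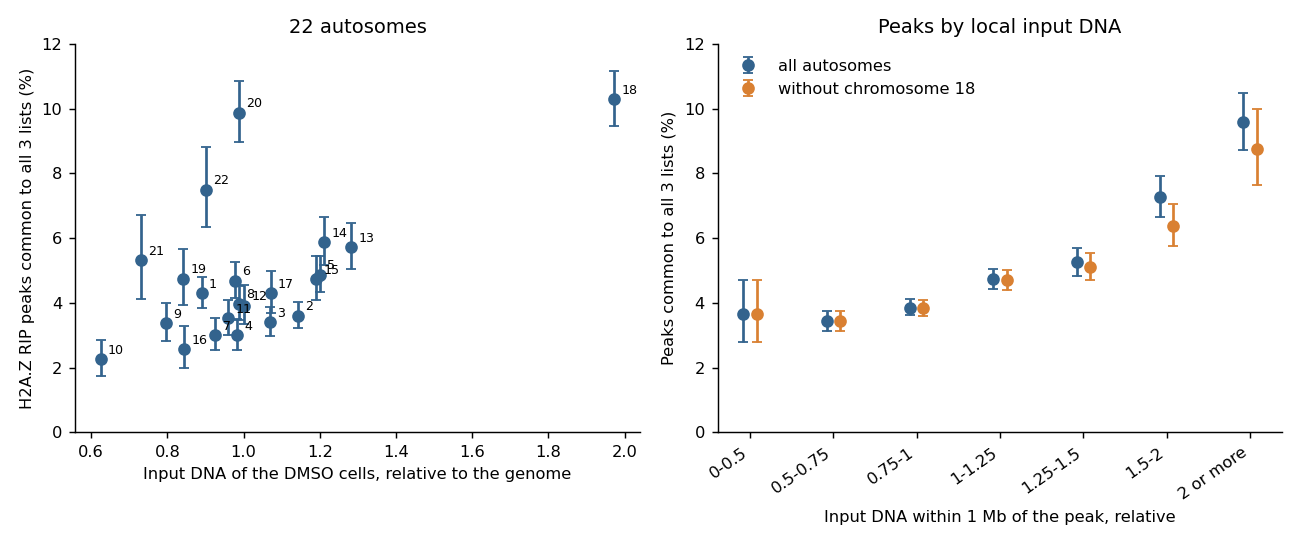
Left, percentage of H2A.Z RIP peaks that were common on each of the 22 autosomes (numbers) against input DNA of the DMSO cells relative to the genome. Right, the same percentage by input DNA within 1 Mb of the peak, with and without chromosome 18; bars are exact 95% binomial intervals. Chromosome 18 is high on both axes, and chromosome 20 reaches 9.87% at an input of 0.988.

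Within chromosomes the common peaks were scattered. Of 568 windows of 5 Mb with an H2A.Z RIP peak, 534 held a common peak. The median distance to the nearest other common peak was 121768 bp, and 406 (8.92%) had another within 10 kb. The fullest window, chr18:5000001-10000000, held 63 common peaks of 393 H2A.Z RIP peaks (16.0%) at an input of 2.10. The next, chr1:150000001-155000000, held 62 of 409 (15.2%) at 1.96. In chr20:40000001-45000000 it was 44 of 352 (12.5%) at 1.06, and in chr8:125000001-130000000, around the MYC locus, 33 of 318 (10.4%) at 4.12. Of the 20 fullest windows 7 were on chromosome 18 and 7 on chromosome 20.

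Common peaks lay in genes less often than other H2A.Z RIP peaks. Of the 4550, 2532 had their centre in an annotated RefSeq gene (55.6%, 54.2 to 57.1%), against 63.2% of all H2A.Z RIP peaks, 64.0% of those with no partner and 65.3% of those with a Tip60 partner alone. Peaks with an acH2A.Z partner alone were at 55.8%, so that the lower share was found in both sets with an acH2A.Z partner. Protein-coding genes held 39.2% of common peaks (47.0% of all), long non-coding RNA genes 15.2% (14.8% of all), pseudogenes 1.05% and other classes 0.264%. The lower share in genes was thus a lower share in protein-coding genes. The lists carry no strand (every peak is given on the plus strand), so sense and antisense RNA cannot be told apart.

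**Figure D3:**
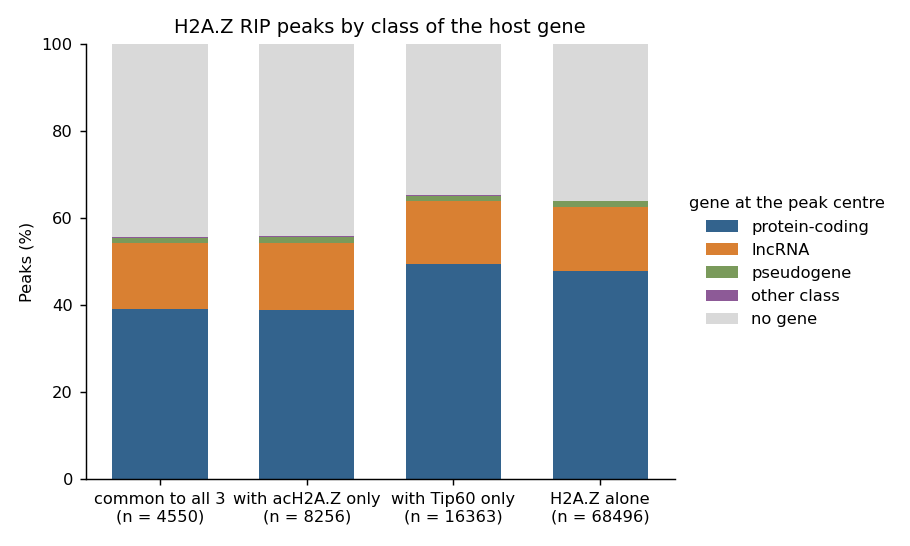
Percentage of H2A.Z RIP peaks by class of the RefSeq gene over the peak centre (the shortest gene where several overlap), in the 4 sets defined by partners in the other RIP lists. The protein-coding share is 39.2% in common peaks and lower in both sets with an acH2A.Z partner than in the other 2 sets.

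The common peaks in genes had 1969 host genes, of which 1335 were protein-coding and 581 long non-coding RNA genes. Most hosts, 1628, held a single common peak, 341 held at least 2 and 22 at least 5. The median span was 124 kb over the protein-coding hosts and 24.5 kb over all 19126 protein-coding genes of the autosomes. It was 118 kb over hosts of peaks with an acH2A.Z partner alone, 86.4 kb with a Tip60 partner alone and 51.5 kb over hosts of any H2A.Z RIP peak. Counted once per peak, the host span had a median of 128 kb for common peaks and 118 kb for all H2A.Z RIP peaks. Long hosts were thus found in the other sets too. The 10 hosts with the most common peaks, 87 of their 566 H2A.Z RIP peaks, included 6 on chromosome 18 and 3 on chromosome 20.

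The host with the most was PTPRT, a receptor-type tyrosine phosphatase of chromosome 20, with 13 common peaks among 89 H2A.Z RIP peaks over 1158 kb. MIR4527HG, a long non-coding microRNA host gene of chromosome 18, had 12 of 31 (38.7%) over 309 kb. MACROD2, an ADP-ribosylhydrolase gene, had 9 of 97, and CDH4, a cadherin gene, 9 of 31; both are on chromosome 20. On chromosome 18, DLGAP1, a postsynaptic scaffold gene, had 9 of 54, PTPRM, another receptor-type phosphatase, 8 of 60, PIEZO2, a mechanosensitive channel, 8 of 38, SETBP1, a SET-binding protein, 7 of 39, and DCC, the netrin receptor, 6 of 72. ASIC2, an acid-sensing channel of chromosome 17, had 6 of 55.

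RNA of these 10 genes was scarce in HL-60 cells. In total RNA 3 were at 1 CPM or more (PTPRM 4.10, SETBP1 2.84 and PIEZO2 2.68 CPM) and 5 had 0 of 12679342 counts, which allows up to 0.237 CPM. In untreated nascent RNA PTPRT was at 0.795 CPM, DLGAP1 at 0.914 CPM and DCC at 0.397 CPM, while ASIC2 and MIR4527HG had 0 counts. In nascent RNA of DMSO cells 8 of the 10 had 0 counts. MACROD2 was the exception among them, with 0 counts in total RNA and 4.05 CPM in untreated nascent RNA, then 1.80 CPM in DMSO, 10.3 CPM in DRB and 0.159 CPM in ActD. Input DNA of DMSO cells held 114 CPM (52 counts) for PTPRT, 151 CPM for PIEZO2 and 145 CPM for DLGAP1, and 2.19 CPM (1 count) for MIR4527HG. These input values are not scaled for length. The transcript length was 12453 bases for PTPRT and 329 bases for MIR4527HG, so the low value of MIR4527HG is not read as less DNA there.

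Over all protein-coding hosts the level of RNA was below that of hosts of other H2A.Z RIP peaks. Of 1321 hosts of common peaks matched to the gene tables, 758 (57.4%, 54.7 to 60.1%) were at 1 CPM or more in total RNA, against 67.1% (66.1 to 68.0%) of 9325 genes that held other H2A.Z RIP peaks alone and 45.2% of 7565 genes with no H2A.Z RIP peak. The median level per kb of transcript was 0.999 CPM per kb in total RNA for hosts of common peaks, 4.13 for hosts of other peaks and 0.0813 for genes with no peak. In untreated nascent RNA these medians were 0.865, 3.53 and 0.312 CPM per kb. Hosts of common peaks were thus between the other groups. Over all 18211 matched protein-coding genes of the autosomes, 57.3% were at 1 CPM or more in total RNA, close to the share of these hosts. The median over all was 1.56 CPM per kb in total RNA.

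The gap was narrower among long genes. Among genes over 100 kb, 55.7% (52.1 to 59.3%) of 754 hosts of common peaks were at 1 CPM or more in total RNA, against 60.5% (58.5 to 62.5%) of 2321 hosts of other peaks. Over all 3169 genes of that length it was 58.5%. The medians per kb of transcript were 0.621 CPM per kb in hosts of common peaks and 1.69 CPM per kb in hosts of other peaks. Input DNA was compared only over genes with at least 20 input counts, a filter on the measured value itself. Among these the median relative input was 1.06 over 716 hosts of common peaks, 1.01 over 3741 hosts of other peaks and 1.00 over all. The upper quartiles were 1.71, 1.56 and 1.55 in the same order.

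Counts over RNA libraries compared single libraries, with a gene called at a 2-fold difference after adding 1 CPM. Between untreated nascent and total RNA, 35 of 790 host genes (4.43%) were higher in nascent RNA, against a background of 9.50% of all genes tested, and 109 (13.8%) were lower, against 17.8%. After centring on the median gene the counts were 68 higher and 57 lower, and after rescaling CPM without mitochondrial, ribosomal and polymerase III RNA they were 67 and 84. No share over all genes is given on the centred and rescaled scales, so these counts show the effect of scaling only. The median log2 ratio was -0.38 in hosts and -0.34 over all genes. Of hosts of other H2A.Z RIP peaks, 5.62% were higher in nascent RNA, so a low share was not particular to hosts of common peaks. Among genes over 100 kb, 4.83% of 435 hosts of common peaks were higher, against 4.73% of all 1924 genes of that length. Among shorter genes it was 3.94% of 355 hosts against 9.84% of 10384 genes. Hosts higher in nascent RNA were RBMS1, an RNA-binding protein (8.19 against 0.315 CPM), DIXDC1, a Wnt pathway protein (8.58 against 0.473 CPM), CACNA1C, a calcium channel subunit (5.32 CPM against 1 count), PGBD5, a transposase-derived gene (4.49 CPM against 1 count), and MACROD2, at least 17.1-fold higher. Lower were GLIS3, a zinc finger factor (41 counts against 152), C1QTNF3, EPB41L5, MELTF and ENDOD1, with log2 ratios of -2.30, -2.06, -1.86, -1.85 and -1.84.

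In nascent RNA of DRB cells against DMSO cells, 94 of 730 hosts (12.9%) were at least 2-fold higher, against 9.62% of all genes tested, and 317 (43.4%) at least 2-fold lower, against 57.4%. The median log2 ratio was -0.73 in hosts of common peaks, -1.20 in hosts of other H2A.Z RIP peaks and -1.32 over all genes. Centred on the median gene, 278 hosts were higher and 104 lower. With the rescaled CPM 175 were higher and 224 lower. No share over all genes is given on the centred and rescaled scales, so these counts have no background to be read against. The balance of higher and lower hosts thus depended on the scaling, and values below are on the uncentred scale. That rescaling shifted the median of all genes by 0.62 on the log2 scale for DRB, by 0.31 for ActD and by 0.26 for nascent against total RNA.

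Gene length moved with the DRB ratio. Among genes over 100 kb the median was -0.29 in 399 hosts of common peaks, -0.53 in 1379 hosts of other peaks and -0.49 over all 1809 genes of that length. Among shorter genes it was -1.32, -1.42 and -1.52 in the same order. Against all genes of like length the median of hosts of common peaks was thus higher by 0.20 and 0.19 on the log2 scale, and without regard to length by 0.60.

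The hosts with the highest DRB ratios were FLT1, a receptor for vascular endothelial growth factor (27.5 CPM in DRB, 1 count in DMSO, with a counting interval of 6.14 to 13.9 for the log2 ratio), MAB21L3 (39.1 against 0.693 CPM), COL14A1, a collagen gene (21.0 CPM against 3 counts), CD226, a lymphocyte adhesion receptor (20.1 against 0.416 CPM), and TSPAN5, a tetraspanin (24.1 against 0.832 CPM). The lowest were SPRING1, a regulator of sterol-sensing transcription factors (0.488 against 46.0 CPM), FAM83D, a spindle protein (0.279 against 35.7 CPM), and RMI1, a genome stability protein (0.558 against 38.8 CPM). RSBN1, a nuclear protein, was at 0.697 CPM in DRB and 37.3 CPM in DMSO, and C19orf12, a mitochondrial membrane protein, at 2 counts and 24.1 CPM. The common peaks in RSBN1 and C19orf12 lay at acH2A.Z ChIP peaks, and those of the other genes named here did not.

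In ActD cells against DMSO cells, 70 of 693 hosts (10.1%) were at least 2-fold higher, against 15.9% of all genes tested, and 380 (54.8%) at least 2-fold lower, against 53.1%. Without regard to length the medians were close together, at -1.19 in hosts of common peaks, -1.20 in hosts of other peaks and -1.17 over all genes. Among genes over 100 kb, 10.1% of 377 hosts of common peaks were higher, against 8.51% of all 1750 genes of that length. The medians there were -1.20 and -1.41. Among shorter genes 10.1% of 316 hosts were higher, against 15.7% of 9021 genes, with medians of -1.13 and -1.11. The lower share of higher hosts was thus found among the shorter genes alone. Over hosts of any length, centring on the median gene gave 180 higher and 201 lower, and the rescaling gave 108 and 328. Here too no share over all genes is given on the centred and rescaled scales. Highest were CTSK, the protease cathepsin K (17.8 CPM against 2 counts), SGK1, a stress-responsive kinase with 5 common peaks (47.4 against 2.01 CPM), and SGPP2, a sphingosine phosphatase (14.4 CPM against 1 count). BLOC1S5-TXNDC5, a readthrough gene that shares exons with its neighbours and is therefore uncertain, was at 86.0 against 7.56 CPM, and EIF2AK3-DT, a divergent transcript with a common peak at an acH2A.Z ChIP peak, at 30.2 against 2.08 CPM.

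At the low end in ActD were TXNL1, a thioredoxin-like protein (1.19 against 105 CPM), DACH1, a transcription factor (0.317 against 54.7 CPM), FAM83D, at least 149.9-fold lower with 0 counts in ActD, MAP2K3, a kinase of the p38 pathway (3 counts against 32.9 CPM), and PDE4B, a cAMP phosphodiesterase (2 counts against 30.6 CPM). FAM83D was thus among the lowest hosts in both treatments. DRB and ActD were compared with the same DMSO library, so their ratios are not independent.

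**Figure D4:**
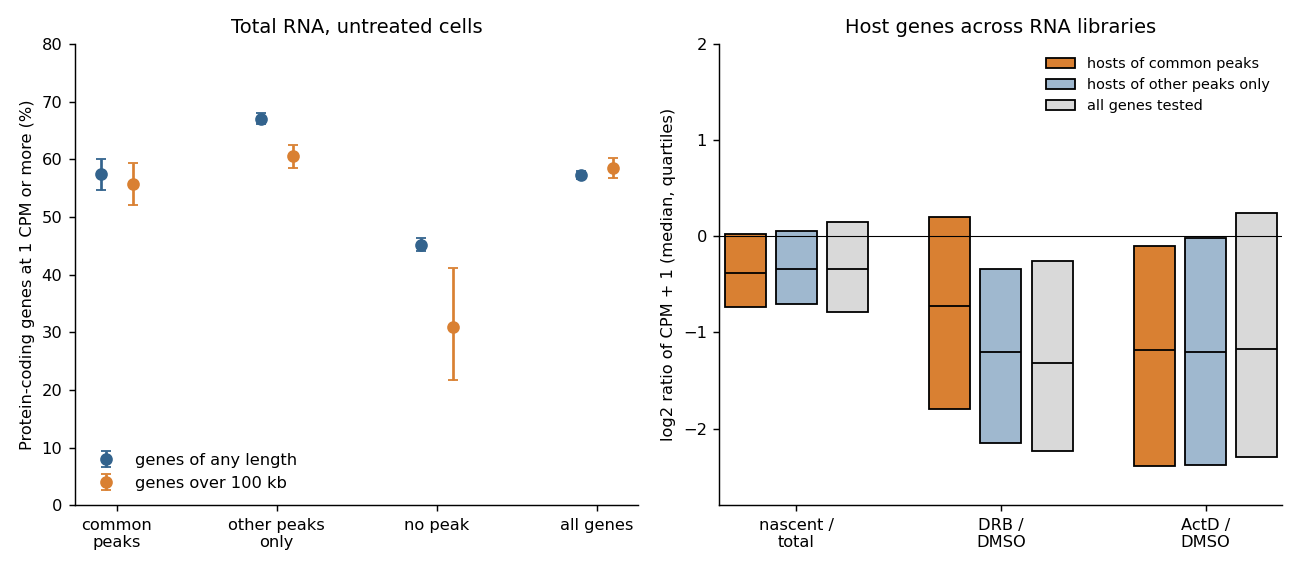
Left, percentage of protein-coding genes at 1 CPM or more in total RNA, for hosts of common peaks, hosts of other H2A.Z RIP peaks alone, genes with no peak and all, with exact 95% binomial intervals. Right, median and quartiles of the log2 ratio of CPM + 1 in 3 pairs of libraries; in DRB against DMSO the hosts of common peaks have a median of -0.73 and all genes -1.32.

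Overlap with acH2A.Z on chromatin was rare, and in DMSO cells it was as rare as in other H2A.Z RIP peaks to within counting error. In DMSO cells 105 of the 4550 common peaks (2.31%, 1.89 to 2.79%) shared at least 1 bp with an acH2A.Z ChIP peak, against a background of 2.18% of all H2A.Z RIP peaks and 2.17% (2.08 to 2.27%) of those that were not common. In DRB cells it was 164 (3.60%, 3.08 to 4.19%) against 2.92% of all, and in ActD cells 145 (3.19%, 2.70 to 3.74%) against 3.29%. The H2A.Z ChIP list of DMSO cells overlapped 12 (0.264%, 0.136 to 0.460%) against 0.116% of all. The intervals for the DRB list and for the H2A.Z list, the latter with 12 peaks, began slightly above the background. Those for the DMSO and ActD lists included it. These intervals take peaks as independent and cover counting error only, so no difference between the lists is read from them. RIP was done in untreated cells and ChIP in treated cells. Median local input DNA was 1.25 at the 105 common peaks and 1.05 at the 2022 other H2A.Z RIP peaks at an acH2A.Z ChIP peak in DMSO, and its part in the overlap was not tested.

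The 105 were mostly shared by the 3 acH2A.Z ChIP lists. An acH2A.Z ChIP peak was also present in DRB cells at 96 and in ActD cells at 94, and 86 had one in all 3 lists. Their ChIP peaks were strong, with a median tag count of 605.3 against 161.1 over the whole list of 17007, and a range of 17.2 to 3559.7. ChIP peaks at other H2A.Z RIP peaks had a median of 432.5. In RIP these peaks were ordinary, with a median H2A.Z tag count of 7.17 against 6.99 in common peaks outside ChIP peaks. The common peak lay wholly inside the ChIP peak in 59 cases.

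Common peaks at ChIP peaks were near gene starts. A gene start of the promoter table lay within 1 kb of 32 of the 100 outside chromosome 8 (32.0%, 23.0 to 42.1%), against 1.47% of common peaks outside ChIP peaks. H2A.Z RIP peaks that were not common but lay at an acH2A.Z ChIP peak were at 34.3% (32.2 to 36.4%), so nearness to a start went with the ChIP peak in both sets. Without chromosome 8, whose promoter windows were not used here, the median distance to a start was 36.8 kb over 4331 common peaks, against 36.7 kb over 92157 H2A.Z RIP peaks. A start lay within 1 kb of 94 of these common peaks (2.17%, 1.76 to 2.65%), against 1.98% of these H2A.Z RIP peaks. The low share near a start was thus found in the whole list and was not particular to common peaks.

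**Figure D5:**
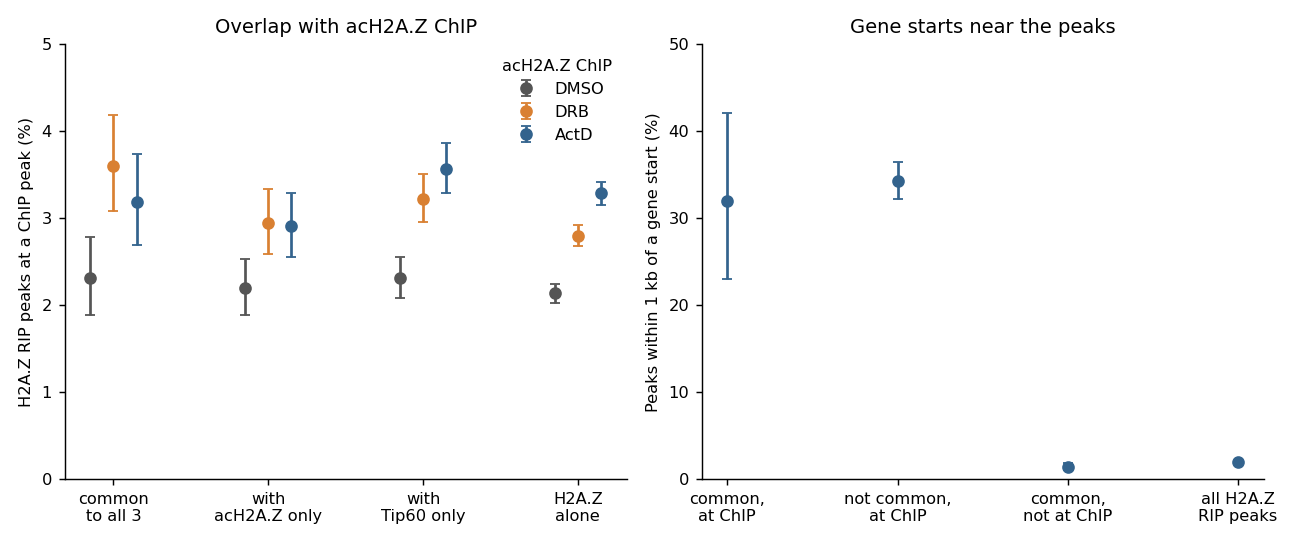
Left, percentage of H2A.Z RIP peaks at an acH2A.Z ChIP peak of DMSO, DRB and ActD cells in the 4 sets defined by RIP partners. Right, percentage within 1 kb of a gene start, without chromosome 8, for peaks at and away from acH2A.Z ChIP peaks of DMSO cells; bars are exact 95% binomial intervals. The common peaks are at 2.31% in DMSO, and peaks at ChIP are at 32.0% and 34.3% near a start.

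Of the 105, 44 lay in protein-coding genes, 20 in long non-coding RNA genes, 1 in a gene of another class and 40 in no gene, over 65 host genes. The strongest ChIP peak with a host was in SLC39A1, a zinc transporter, at chr1:153966507-153967143. Its tag count was 3502.8 in ChIP, 9.52 in H2A.Z RIP, 73.8 in acH2A.Z RIP and 36.9 in Tip60 RIP, and its RNA was at 85.0 CPM in total RNA. MRPS30-DT, a divergent transcript, followed with 2710 in ChIP, 5.37 in H2A.Z RIP and 0 counts in total RNA. CARS2, the mitochondrial cysteinyl-tRNA synthetase, had 2215.3 in ChIP and 105 CPM in total RNA. SLC38A4-AS1, TIMM9, a chaperone of mitochondrial import, and POLR3GL, a subunit of RNA polymerase III, had 1963.3, 1734.9 and 1669.7 in ChIP.

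Hosts of common peaks at ChIP peaks were expressed. Of 44 such protein-coding hosts, 40 (90.9%, 78.3 to 97.5%) were at 1 CPM or more in total RNA, against 57.3% of all protein-coding genes. The median of these hosts was 14.7 CPM per kb of transcript. Their median span was 33.0 kb. The ratios that follow cover hosts of any gene class that passed the filter on level, a set other than the 44 protein-coding hosts above. In DRB against DMSO, 0 of 44 hosts tested were at least 2-fold higher, against 9.62% of all genes tested, and 28 (63.6%) were at least 2-fold lower, against 57.4%. The median log2 ratio was -1.41, and -1.32 over all genes. In ActD against DMSO 3 (6.82%) were higher, against 15.9% of all genes tested, and 21 (47.7%) were lower, against 53.1%, with a median of -0.94. The shares that were lower were thus near those of all genes in both treatments. The common peak in WDR7 shared 425 of its 3112 bp with a ChIP peak of 1059.9. WDR7 was at 63.7 CPM in nascent RNA of DMSO cells, 48.6 CPM in DRB and 123 CPM in ActD.

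Lists of genes chosen for their roles held few common peaks, beside 4.66% over all H2A.Z RIP peaks, and their counts are small. Of 14 transcripts of RNA polymerase III, 3 had an H2A.Z RIP peak (RN7SK, RN7SL2 and RPPH1) and none a common peak. Of 22 long non-coding RNAs, 14 had one or more H2A.Z RIP peaks, 49 in all, and 2 had a common peak. These were PVT1, the neighbour of MYC (1 of its 24 peaks), and NORAD, a cytoplasmic RNA that binds Pumilio proteins (its 1 peak, tag count 4.16). MALAT1 and NEAT1, abundant nuclear RNAs, had 3 and 6 H2A.Z RIP peaks, up to 424.6 and 322.1, and no acH2A.Z or Tip60 partner at any.

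Genes that encode H2A.Z or members of the SRCAP and TIP60 complexes had 60 H2A.Z RIP peaks over 19 of 25 genes placed on the genome, and 1 common peak. It lay in ANP32E, the chaperone that removes H2A.Z from chromatin (6 peaks, highest tag count 34.9). MYC and its targets had 30 H2A.Z RIP peaks over 12 of 18 genes and no common peak, and MYC itself had 1 H2A.Z RIP peak with a Tip60 partner alone. Genes of promyelocytes had 32 peaks over 9 of 18 genes and 1 common peak, in CSF1R, a macrophage receptor with 1 count in total RNA. MPO, the peroxidase of promyelocyte granules at 533 CPM in total RNA, had 4 peaks without a partner. Genes of other cell types held 6 H2A.Z RIP peaks and no common peak.

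The gene tables held 12679342 counts for total RNA, 25167597 for untreated nascent RNA and 12600067 to 14426368 for the treated nascent libraries, and 440923 to 469547 for input DNA. Of the markers checked in total RNA, 7 of 8 promyelocytic genes were at 1 CPM or more and ELANE, neutrophil elastase, had 0 counts, all 4 erythroid and all 4 lymphoid genes were at 0 and 1 of 5 epithelial and fibroblast genes was above 0, at 0.868 CPM.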

How the data were processed

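All 27 libraries were of HL-60 cells, 1 per group, with groups taken from titles and treatment labels. Per the submitters' processing notes, the build was GRCh38 and the tools included Trim Galore, cutadapt, FastQC, STAR 2.5.2b and HOMER. Per the file headers, the deposited peak lists are HOMER output, called by the authors per library, with a Normalized Tag Count (a signal), a score, a fold over control of at least 4 (a ratio) and a p-value of at most 1e-04. Tags are stated as normalized without a scale, so tag counts were compared within a list. Per the file headers, the deposited gene tables hold expected counts, from a quantifier not given in the sources used here.

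Peaks were matched by shared bases on any strand (smaller end minus larger start), with the partner of largest overlap. Host genes were RefSeq genes (GRCh38.p14) over the peak centre, the shortest where several overlapped. Of 1969 host genes, 1573 matched the gene tables. Counts were rounded for intervals. CPM used all genes, and ratios a pseudocount of 1 CPM, a mean of at least 1 CPM and at least 20 counts. Local input DNA was summed over genes with an effective length over 200 bases and a midpoint within 1 Mb. It was kept where the summed length of these genes was at least 20 kb. This gave a value for 3774 of 4550 common peaks and 78643 of 97665 H2A.Z RIP peaks. Sequences came from RefSeq, GRCh38.p14. Scripts were tested on simulated data, with Python 3.11.15, numpy 2.4.6, pandas 2.3.3, scipy 1.17.1 and matplotlib 3.10.9. The alternatives changed overlap, fold, score, gene choice, pseudocount, filter and scaling.

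Named peaks were the 12 with the highest H2A.Z tag count, the 5 with the highest partner in each other list, the 5 best by lowest rank and those at the edge of the rule. Named genes were the 10 hosts with the most common peaks, hosts of named peaks, the 6 hosts with the highest ChIP tag counts and, with at least 100 counts, the 5 highest and 5 lowest in each comparison. The contrasting promoters of SEMA3F and HBP1 were chosen after their values were seen. The members and lists were chosen with earlier results of these data known.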

Additional observations from a re-analysis of the deposited data

How the results depend on the processing

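With 1 library a group, differences could not be set against replicates, depth of the RIP libraries was unknown, and intervals covered counting error only. No paired analysis was possible because each group had 1 library and the labels give no replicate numbers. Of 71 alternatives over 18 results, 33 left the value within its interval, or a count within 1.5 times, and 38 moved it. The cause was not tested except where fewer peaks or genes entered.

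The 4550 common peaks became 1802 when each partner had to cover 50% of the peak, 1055 at a fold of at least 8 in each list, 8 among the 10000 peaks of highest score in each list and 7016 as merged regions. Chosen after seeing the data, leaving out chromosomes 18 and 20 gave 3633 common peaks, 56.4% of them in a gene. The share at acH2A.Z ChIP in DMSO, 2.31%, became 3.52% within 1 kb, 1.76% at 50% coverage, 1.61% at a RIP fold of at least 8 and 1.89% for common peaks by 50% overlap. The share in other H2A.Z RIP peaks, 2.17%, became 3.52%, 1.71%, 1.72% and 2.18% under the same settings. By value alone, common peaks were above the others as reported and at 50% coverage. They were below them at a RIP fold of at least 8 and with common peaks by 50% overlap. The intervals of the reported shares overlapped (1.89 to 2.79% and 2.08 to 2.27%), so no order is read from these differences. Median tag counts at a fold of at least 8 were 6.36 in H2A.Z and 8.88 in Tip60, and with 50% overlap 7.35 in H2A.Z, 10.2 in acH2A.Z and 11.1 in Tip60. The share in a gene was 53.4% at a fold of at least 8. With the longest gene over the centre as host, 41.4% lay in protein-coding and 13.0% in long non-coding RNA genes. Host genes numbered 889 with 50% overlap and 521 at a fold of at least 8. Median relative input of hosts was 1.14 with the ActD input.

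Host genes higher in nascent than in total RNA, 35, became 64 without a filter, 68 centred, 67 rescaled and 14 with 50% overlap. Those lower, 109, became 57 centred and 46 with 50% overlap. For DRB, the 94 higher became 278 centred, 175 rescaled and 41 with 50% overlap, and the 317 lower became 104 centred and 125 with 50% overlap. For ActD, the 70 higher became 180 centred, 108 rescaled and 32 with 50% overlap, and the 380 lower became 201 centred and 148 with 50% overlap. No share over all genes is given under these alternative settings.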
